A study of Homo sapiens with 6 samples.

Results

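The nuclear genes for the subunits of the respiratory chain and of ATP synthase were followed in RNA sequencing libraries of cells labelled MB231, a name used for the breast cancer line MDA-MB-231. The set was taken from gene names: protein-coding genes named as NDUF subunits of complex I, SDH subunits of complex II, UQCR genes and CYC1 of complex III, COX genes of families 4 to 8 of complex IV, and ATP5 genes of complex V. This gave 91 genes of 58735 in the table, of which 19951 are protein-coding. Complex I held 37 of them, complex II 4, complex III 10, complex IV 19 and complex V 21. NDUFA4 and NDUFA4L2 were counted with complex IV, where the NDUFA4 protein is known to reside despite its name.

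In 3 libraries the labels give shPAK5 with the genotype PAK5 knockdown, and these were set against 3 libraries labelled shNC with the genotype WT. The labels name no promoter or vector for the hairpins, no time of harvest and no second hairpin, and they do not say whether replicates came from separate cultures. A p-value thus reflects the spread of these 6 libraries alone, which may be technical. Levels are FPKM, a read density per kilobase of a gene's exons that is corrected for sequencing depth, and differences are on the log2(FPKM + 1) scale, shPAK5 minus shNC. The reads behind the values came to 15085168 to 18146091 per shPAK5 library and 16522885 to 17464058 per shNC library. A gene was tested where its 6 libraries averaged 1 FPKM or more, which left 11237 genes and 78 of the 91 subunit genes.

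The respiratory chain passes electrons from NADH, through complex I, or from succinate, through complex II, by way of ubiquinone to complex III, then to cytochrome c, to complex IV and to oxygen. Complexes I, III and IV pump protons across the inner mitochondrial membrane, and complex V, the ATP synthase, uses the return flow to make ATP. Most subunits are encoded in the nucleus, a few catalytic ones of complexes I, III, IV and V in mitochondrial DNA, and those of complex II in the nucleus alone. Cancer cells keep the chain at work to differing extents beside glycolysis, partly to regenerate electron acceptors for biosynthesis. In bulk RNA fewer cells with a transcript and less of it per cell cannot be told apart.

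PAK5, a p21-activated kinase and the labelled target, had 0 reads in all 6 libraries. The upper limit for such a 0 was set at 3 reads, equal to 0.0335 to 0.0403 FPKM, so the labelled knockdown could not be checked here. Of 9 genes written as markers of the labelled mesenchymal line, 5 reached 1 FPKM, and the list summed to 299.6 to 303.7 FPKM in shPAK5 and 270.1 to 300.2 FPKM in shNC libraries. Of the 9, CDH2 and TWIST1 were at 0 throughout. Epithelial markers reached 1 FPKM for 7 of 8 genes, at sums of 3416 to 3468 FPKM in shPAK5 and 3397 to 3562 FPKM in shNC libraries, led by KRT19 at 1438 FPKM. Breast luminal markers did so for 1 of 4 genes, and those of leukocytes, fibroblasts, endothelium, striated muscle and testis for none. Of the mesenchymal list FN1, SPARC, CDH2 and TWIST1 stayed under 1 FPKM, and of the epithelial list ESRP1. The other markers of both lists were present, and the epithelial sum was above the mesenchymal sum in every library. EPCAM was at 118.4 FPKM and CDH1 at 5.24 FPKM over the 6 libraries. High epithelial markers stand at odds with a mesenchymal label, and whether the cells are of the labelled line was not tested. The cells are called here by their label. Chi-square per degree of freedom between libraries was 2.33 to 2.82 among shPAK5 and 3.22 to 9.25 among shNC libraries, where the pairs with shNC replicate 1 were the farthest apart.

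As a group the subunit genes lay at nearly the same level in shPAK5 and shNC libraries. They took 1.19, 1.22 and 1.22% of all reads in the 3 shPAK5 libraries and 1.21, 1.20 and 1.21% in the 3 shNC libraries. Their summed level was 5010 ± 73.1 FPKM in shPAK5 and 4994 ± 90.9 FPKM in shNC (SD, n = 3 each). No subunit gene passed limma at a Benjamini-Hochberg adjusted p of 0.05, the adjusted p running from 0.188 to 0.985, where 13 of the 11237 genes did, 0.116%. At an unadjusted limma p under 0.05 stood 8 of the 78 tested subunit genes, 10.3%, against 17.0% of all tested genes. In limma-voom on the reads recovered from the FPKM values 0.845% of all genes passed as higher and 1.04% in either direction. Of the subunit genes 3 passed, 3.85% of those tested, all higher in shPAK5. These were NDUFA5 and NDUFB5 of complex I and SDHD of complex II.

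The median difference of the 78 genes was 0.01, with 45 above 0 and 33 below, and that of all 11237 genes was 0.00, with 5764 above and 5473 below. The 95% interval of the difference lay within 1.25-fold in either direction for 69 of the 78 genes and within 1.5-fold for 75. The 3 whose interval reached past 1.5-fold of FPKM + 1 were NDUFA5, NDUFB5 and SDHD. All 3 shPAK5 libraries lay above all 3 shNC libraries for 9 subunit genes, 11.5% of those tested, where this held for 12.6% of all tested genes. The opposite order held for ATP5MF and NDUFA12, 2.56% of the tested subunit genes, against 10.5% of all tested genes.

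**Figure D1:**
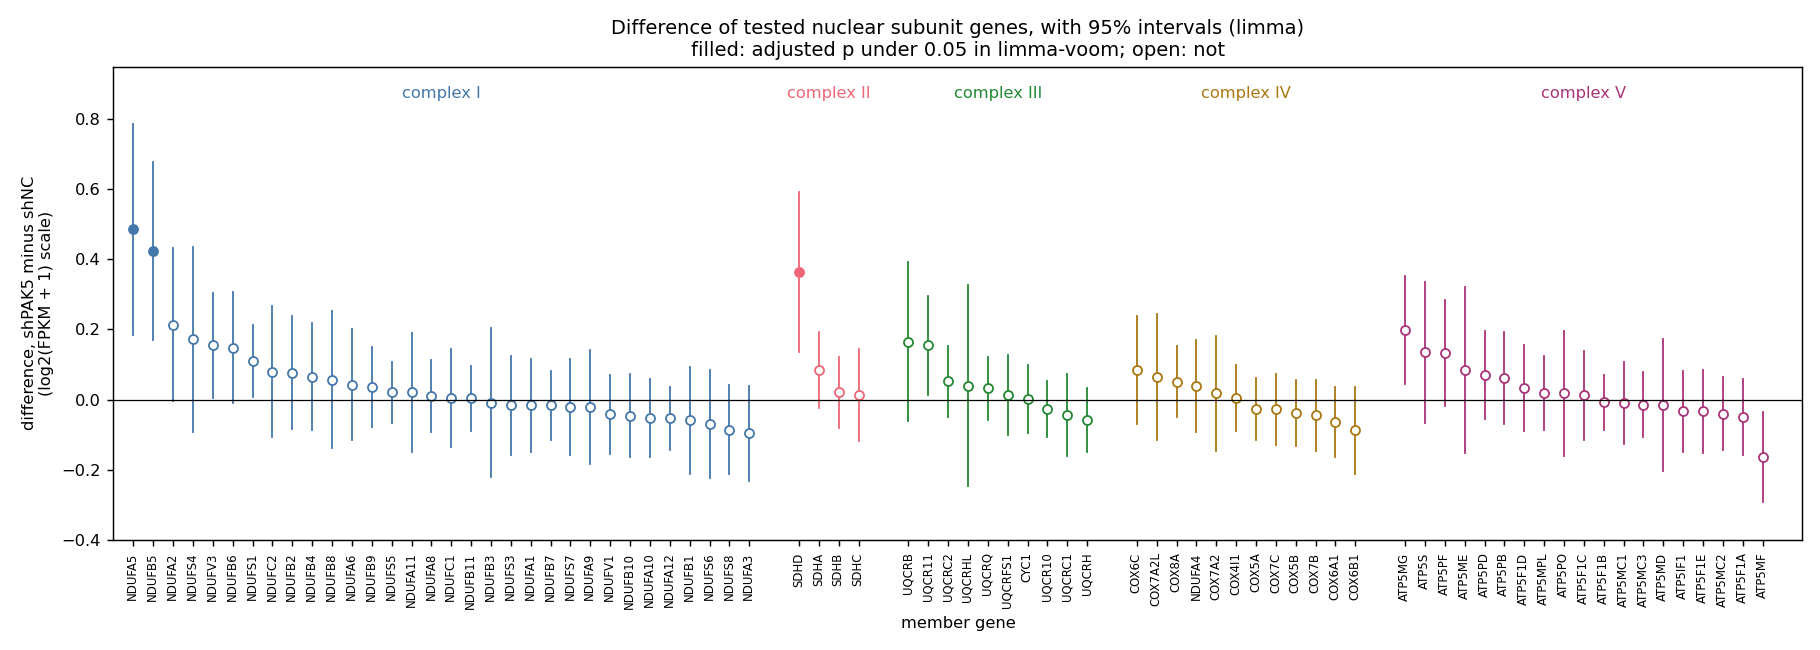
Difference between shPAK5 and shNC (log2(FPKM + 1) scale) of 77 of the 78 tested subunit genes in 5 complexes; points are limma estimates from 3 libraries a group, lines are 95% intervals, and filled points passed limma-voom. Apart from 3 genes the points sit between -0.16 and 0.21; NDUFA5 at 0.49, NDUFB5 at 0.42 and SDHD at 0.36 stand above the rest.

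By complex, the median difference was 0.00 for complex I, 0.05 for complex II, 0.02 for complex III, -0.01 for complex IV and 0.01 for complex V. In complex II 4 of 4 genes were above 0, but 3 of 4 after a correction for GC content or for length and 2 of 4 without shNC replicate 2. For complex I 18 of 33 genes were above 0, for complex III 7 of 10, for complex IV 6 of 12 and for complex V 10 of 19. These splits moved with the processing, to 24 of 33 for complex I and 4 of 12 for complex IV after the GC correction. They also moved with single libraries, to 16 of 33, 3 of 12 and 8 of 19 for complexes I, IV and V without shNC replicate 2, to 5 of 10 and 8 of 19 for complexes III and V without shPAK5 replicate 2, and to 5 of 10 for complex III without shNC replicate 3. The median complex I gene lay 0.07 below its 6-library mean in shNC replicate 2, and the median complex IV gene lay 0.07 above it in shNC replicate 1. Of the 3 shNC libraries, replicate 2 gave the lowest value for 47 of the 78 subunit genes and replicate 1 the highest for 41. Over all tested genes replicate 2 was lowest for 4349 of 11237, close to the 4340 of replicate 1. The spread within a group was larger in shNC than in shPAK5 for 57 of the 78 subunit genes, 73.1%, and for 66.5% of all tested genes.

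**Figure D2:**
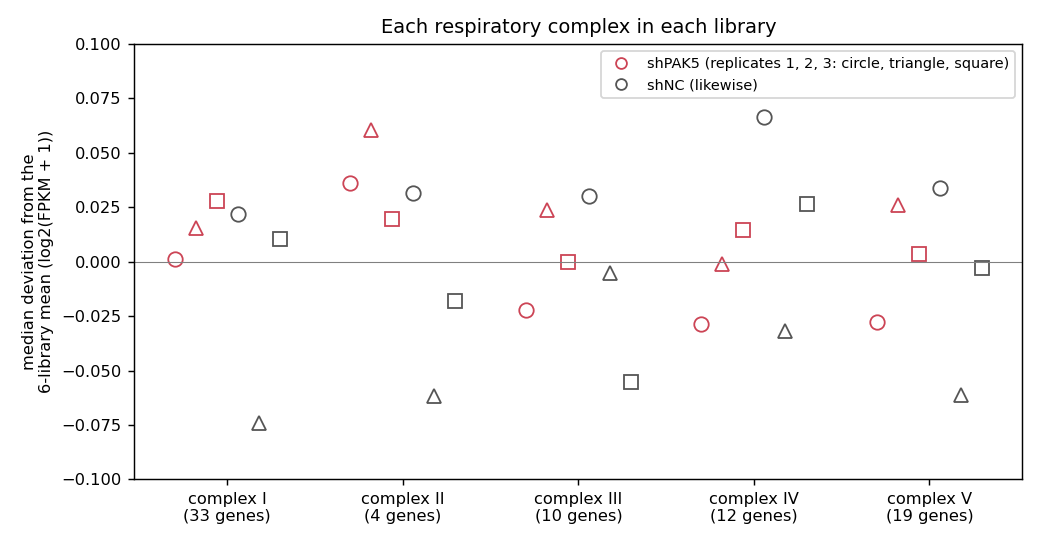
Median deviation of the tested genes of each complex from their own 6-library mean (log2(FPKM + 1) scale), one point per library, shPAK5 left of shNC. In complexes I, II, IV and V shNC replicate 2 is the lowest library, in complex IV by a small margin below shPAK5 replicate 1 (both -0.03); in complex III shNC replicate 3 is the lowest, at -0.06.

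Complex I takes electrons from NADH through a flavin and a row of iron-sulfur clusters held by core subunits, around which accessory subunits assemble. The 37 complex I genes summed to 1379 ± 8.75 FPKM in shPAK5 and 1369 ± 46.9 FPKM in shNC (SD, n = 3 each). Of the nuclear core subunits, 6 of 7 were tested, with 1 difference above 0 and 5 below, and with 4 above and 2 below after a correction for GC content. The one above 0 without it was NDUFS1, which carries several of the iron-sulfur clusters. It was at 16.1, 16.1 and 16.9 FPKM in shPAK5 and 15.2, 14.8 and 15.3 FPKM in shNC libraries, without overlap, at 0.11 ± 0.04 (SE; limma unadjusted p = 0.0373, adjusted p = 0.271), and at 0.05 ± 0.04 (SE) after the GC correction. NDUFS3, NDUFS7, NDUFS8 and NDUFV1 of the core differed by -0.09 to -0.02. Of the accessory subunits 27 were tested, with 17 differences above 0 and 10 below and a median of 0.02. This split moved to 20 above and 7 below after the GC correction. Without shNC replicate 2 it was 13 above and 14 below, and that of the core was 3 and 3.

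NDUFA5 is an accessory subunit of the arm of complex I that reaches into the matrix, next to the iron-sulfur proteins. It showed the largest difference of the set. Its levels were 8.74, 7.91 and 7.37 FPKM in shPAK5 and 6.93, 4.46 and 5.11 FPKM in shNC libraries. Each shPAK5 library lay above each shNC library, and shNC replicate 1 lay nearest to the shPAK5 group. The means were 8.01 ± 0.691 FPKM in shPAK5 and 5.50 ± 1.28 FPKM in shNC (SD, n = 3 each), a ratio of 1.46. The difference was 0.49 ± 0.13 (SE), with an adjusted p of 0.190 in limma and of 0.0279 in limma-voom. NDUFA5 (ENSG00000128609) is a minus-strand gene of chromosome 7, at 123536997 to 123558255 in GRCh38, and none of its coding bases overlap another annotated gene. A processed pseudogene, NDUFA5P11, stood the other way: 3, 4 and 5 reads in shPAK5 against 16, 11 and 11 reads in shNC libraries, a difference of -0.89 ± 0.14 (SE; limma adjusted p = 0.0718). NDUFA5 itself had 6750 reads over the 6 libraries. Whether reads were exchanged between the gene and its processed copies was not tested.

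NDUFB5, an accessory subunit of the membrane arm, was at 12.2, 12.3 and 12.1 FPKM in shPAK5 and 10.6, 7.26 and 8.97 FPKM in shNC libraries. The 3 shPAK5 values nearly coincide, the shNC values spread widely below them, and shNC replicate 1 was again the nearest. The means were 12.2 ± 0.0942 FPKM in shPAK5 and 8.95 ± 1.68 FPKM in shNC (SD, n = 3 each), a ratio of 1.37. The difference was 0.42 ± 0.11 (SE), with an adjusted p of 0.188 in limma and of 0.0340 in limma-voom. NDUFB5 (ENSG00000136521) is a plus-strand gene of chromosome 3, at 179604690 to 179627647.

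For 29 of the 33 tested complex I genes the 95% interval of the difference lay within 1.25-fold of FPKM + 1. The most abundant of them, NDUFS5, a small accessory subunit on the intermembrane side, had 233.6 ± 3.65 FPKM in shPAK5 and 230.3 ± 7.94 FPKM in shNC (SD, n = 3 each). The largest difference downward was that of NDUFA3, an accessory subunit of the membrane arm, at 9.73, 11.1 and 9.91 FPKM in shPAK5 and 11.1, 10.7 and 11.2 FPKM in shNC libraries, a difference of -0.10 ± 0.06 (SE; limma adjusted p = 0.431). The groups overlapped for NDUFA3. NDUFV3, a small subunit beside the flavin-binding NDUFV1, was at 5.94, 5.63 and 6.55 FPKM in shPAK5 and 5.57, 5.16 and 5.22 FPKM in shNC libraries. Its groups did not overlap, with a difference of 0.15 ± 0.06 (SE; limma adjusted p = 0.286).

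**Figure D3:**
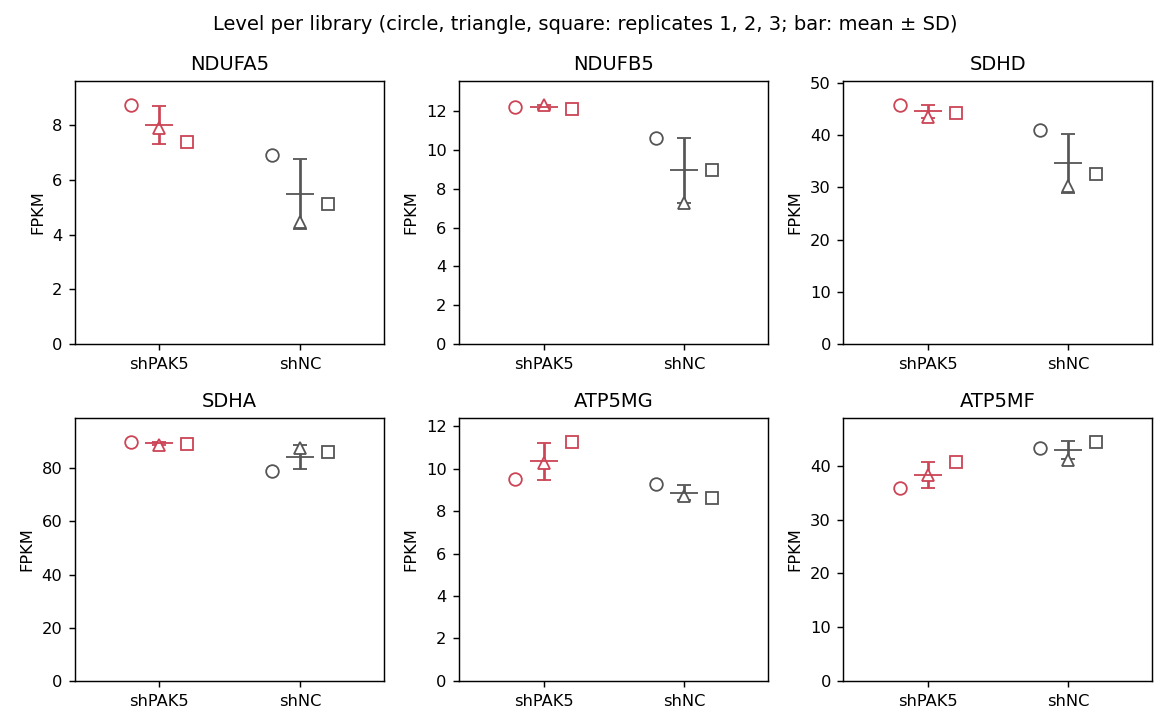
Level in FPKM of 6 subunit genes in each library, shPAK5 left and shNC right, with the mean ± SD (n = 3). For NDUFA5, NDUFB5 and SDHD shNC replicate 1 (circle) lies between the shPAK5 libraries and the other shNC libraries; ATP5MF is the one of the 6 genes with all shPAK5 libraries below all shNC libraries.

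Complex II, succinate dehydrogenase, is both an enzyme of the citric acid cycle and an entry to the chain. SDHA holds the flavin and binds succinate, SDHB carries the iron-sulfur clusters, and SDHC and SDHD anchor them in the membrane and bind ubiquinone. The summed level of the 4 genes was 190.3, 187.7 and 187.8 FPKM in shPAK5 and 175.0, 169.4 and 174.2 FPKM in shNC libraries, without overlap. The largest share of that gap came from SDHD, at 45.8, 43.5 and 44.3 FPKM in shPAK5 and 41.0, 30.3 and 32.6 FPKM in shNC libraries. The SDHD groups did not overlap either, and shNC replicate 1 stood closer to the shPAK5 libraries than to the other shNC libraries.

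SDHD averaged 44.5 ± 1.16 FPKM in shPAK5 and 34.6 ± 5.63 FPKM in shNC (SD, n = 3 each), a ratio of 1.29. The difference was 0.36 ± 0.10 (SE), with an adjusted p of 0.191 in limma and of 0.0416 in limma-voom. SDHD (ENSG00000204370) is a plus-strand gene of chromosome 11, at 112086773 to 112120013. Of its coding bases 47.7% are shared with AP002884.3, a gene annotated on the same strand that was listed with 0 reads in all 6 libraries. TIMM8B, a chaperone of the intermembrane space, is transcribed away from SDHD from a start close by. It was at 51.5, 52.1 and 47.2 FPKM in shPAK5 and 55.2, 52.1 and 59.9 FPKM in shNC libraries, a difference of -0.15 ± 0.06 (SE; limma adjusted p = 0.288), opposite in sign to SDHD.

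SDHA was at 90.0, 88.7 and 89.3 FPKM in shPAK5 and 78.9, 87.5 and 86.3 FPKM in shNC libraries. Its groups did not overlap, with the low value in shNC replicate 1, unlike SDHD. The difference was 0.08 ± 0.05 (SE; limma adjusted p = 0.392). SDHB averaged 44.4 ± 0.373 FPKM in shPAK5 and 43.7 ± 1.91 FPKM in shNC, and SDHC averaged 10.4 ± 0.592 FPKM in shPAK5 and 10.3 ± 0.404 FPKM in shNC (SD, n = 3 each), both with overlapping groups. The membrane partners SDHC and SDHD thus differed unequally, by 0.01 and 0.36. SDHA lies on chromosome 5 from 218241 to 256700, SDHB on chromosome 1 from 17018722 to 17054170 and SDHC on chromosome 1 from 161314257 to 161375340.

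Complex III, the cytochrome bc1 complex, moves electrons from ubiquinol to cytochrome c through the Rieske iron-sulfur protein UQCRFS1 and cytochrome c1, the product of CYC1. CYC1, its most abundant gene, had 310.3 ± 4.75 FPKM in shPAK5 and 310.0 ± 14.9 FPKM in shNC (SD, n = 3 each), and UQCRFS1 had 40.0 ± 0.199 FPKM in shPAK5 and 39.7 ± 2.29 FPKM in shNC. These redox subunits differed by 0.00 and 0.01. The sum of the 10 genes was 825.1 ± 12.5 FPKM in shPAK5 and 826.5 ± 6.86 FPKM in shNC.

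The other subunits of complex III surround this core. UQCR11, a small subunit, was at 12.5, 12.0 and 12.9 FPKM in shPAK5 and 11.9, 10.3 and 11.1 FPKM in shNC libraries. The groups did not overlap, though shPAK5 replicate 2 and shNC replicate 1 nearly met, and the difference was 0.16 ± 0.06 (SE; limma unadjusted p = 0.0349, adjusted p = 0.266). Of the UQCR11 coding bases 100% are shared on the same strand with AC005943.1, which had 0 reads. UQCRB, which helps bind ubiquinone, had the largest difference upward in limma within complex III, at 22.3 ± 0.493 FPKM in shPAK5 and 19.9 ± 3.10 FPKM in shNC, or 0.16 ± 0.10 (SE; adjusted p = 0.425), with overlapping groups. After the GC correction its difference was 0.04, and that of UQCR11 0.20. UQCRH, the hinge protein, stood lowest in sign, at 146.2 ± 4.85 FPKM in shPAK5 and 152.2 ± 3.77 FPKM in shNC, or -0.06 ± 0.04 (SE; limma adjusted p = 0.486). UQCRHL, a gene copy of UQCRH, was at 1.63 ± 0.280 FPKM in shPAK5 and 1.57 ± 0.369 FPKM in shNC (SD, n = 3 each). Since it is nearly identical to UQCRH, reads may have been split between them, and its level is uncertain.

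Complex IV, cytochrome c oxidase, has nuclear subunits in alternative forms that differ between tissues, and only the widespread forms reached 1 FPKM in these libraries. All 11 genes counted as the main forms were tested, from 31.6 to 249.9 FPKM, and all 7 counted as tissue forms stayed under 1 FPKM. COX4I1 was at 101.7 ± 3.70 FPKM in shPAK5 and 101.4 ± 2.30 FPKM in shNC (SD, n = 3 each), while COX4I2, the form of lung and of low oxygen, had 0 reads in all 6 libraries, where 3 reads equal 0.239 to 0.287 FPKM. COX6A2, a heart and muscle form, and COX7B2, a testis form, also had 0 reads. COX7A1, a heart and muscle form, had 0 reads in shPAK5 and 4 in shNC, and COX8C, a testis form, had 1 read in shPAK5 and 0 in shNC. COX6B2, the testis partner of COX6B1, had 20 reads in shPAK5 and 17 in shNC. NDUFA4L2, a hypoxia-induced relative of NDUFA4, was at 0.346 ± 0.0588 FPKM in shPAK5 and 0.266 ± 0.0279 FPKM in shNC, under the limit for testing, while NDUFA4 was at 44.5 ± 1.80 FPKM in shPAK5 and 43.3 ± 2.80 FPKM in shNC. Markers of striated muscle and of testis, the tissues named for COX6A2, COX7A1, COX7B2, COX8C and COX6B2, also lay under 1 FPKM. No marker list was written for lung or for low oxygen.

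Among the main forms of complex IV 5 differences lay above 0 and 6 below, between -0.09 and 0.09. COX8A, the most abundant, had 254.4 ± 10.6 FPKM in shPAK5 and 245.3 ± 8.13 FPKM in shNC (SD, n = 3 each). The largest upward difference was that of COX6C, at 55.5 ± 1.97 FPKM in shPAK5 and 52.4 ± 4.72 FPKM in shNC (0.09 ± 0.07, SE; limma adjusted p = 0.538). The largest downward one was that of COX6B1, which joins the monomers of the dimer, at 128.4 ± 8.48 FPKM in shPAK5 and 136.4 ± 4.36 FPKM in shNC (-0.09 ± 0.05, SE; limma adjusted p = 0.431). The widespread forms of the other alternative pairs lay close together in the groups: in shPAK5 libraries COX6A1 averaged 79.2 ± 2.91, COX7A2 34.5 ± 1.95 and COX7B 31.1 ± 0.565 FPKM, and in shNC libraries COX6A1 averaged 82.8 ± 2.53, COX7A2 34.1 ± 2.95 and COX7B 32.1 ± 1.28 FPKM. COX7A2L, which ties complexes III and IV into supercomplexes, was the lowest tested gene of the complex, at 10.6 ± 0.194 FPKM in shPAK5 and 10.1 ± 1.17 FPKM in shNC. For none of the complex IV genes tested did the groups separate. The sum over all 19 genes was 1079 ± 24.7 FPKM in shPAK5 and 1085 ± 30.3 FPKM in shNC.

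Complex V joins a catalytic head in the matrix to a membrane rotor, with a peripheral stalk that holds the head in place. Its most abundant gene was ATP5F1B, the catalytic beta subunit, at 788.1 ± 23.3 FPKM in shPAK5 and 792.4 ± 12.6 FPKM in shNC (SD, n = 3 each), rank 28 of the 9997 tested protein-coding genes by level. ATP5F1A, the alpha subunit that alternates with beta in equal number, was listed far lower, at 30.7 ± 0.561 FPKM in shPAK5 and 31.9 ± 1.47 FPKM in shNC. Scaled to the length of the principal transcript in place of all exons, ATP5F1A came to 58.7 and ATP5F1B to 997.8 FPKM over the 6 libraries, so a gap was present on that scale too. The 5 genes of the head and central stalk differed by -0.05 to 0.03. The sum of all 21 genes was 1538 ± 36.6 FPKM in shPAK5 and 1540 ± 16.6 FPKM in shNC.

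The rotor ring is built from one mature protein encoded by 3 genes. ATP5MC1 was at 35.3 ± 1.30 FPKM in shPAK5 and 35.5 ± 1.75 FPKM in shNC, ATP5MC2 at 56.1 ± 0.267 FPKM in shPAK5 and 57.7 ± 2.85 FPKM in shNC, and ATP5MC3 at 69.4 ± 1.53 FPKM in shPAK5 and 70.1 ± 2.26 FPKM in shNC (SD, n = 3 each). The order of the 3 genes was the same in both groups, and their differences ran from -0.04 to -0.01, with 1 of 3 above 0 after the GC correction, without shPAK5 replicate 1 or without shPAK5 replicate 3, and 2 of 3 without shNC replicate 3. The 4 peripheral stalk genes, ATP5PB, ATP5PD, ATP5PF and ATP5PO, had differences above 0, from 0.02 to 0.13, though without shPAK5 replicate 2, shPAK5 replicate 3 or shNC replicate 3 it was 3 of 4. None of them passed limma. ATP5IF1, the inhibitor that blocks hydrolysis of ATP when the proton gradient collapses, was at 32.0 ± 0.831 FPKM in shPAK5 and 32.8 ± 1.72 FPKM in shNC.

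The largest differences of complex V lay among the small membrane subunits and ran both ways. ATP5MG, subunit g, was at 9.52, 10.3 and 11.3 FPKM in shPAK5 and 9.29, 8.70 and 8.63 FPKM in shNC libraries, and the groups did not overlap. Its difference was 0.20 ± 0.07 (SE; limma unadjusted p = 0.0177, adjusted p = 0.227), and 0.13 after the GC correction. ATP5MF, subunit f, was at 35.9, 38.3 and 40.7 FPKM in shPAK5 and 43.3, 41.1 and 44.5 FPKM in shNC libraries, with every shPAK5 library the lower. Its difference was -0.16 ± 0.06 (SE; limma unadjusted p = 0.0187, adjusted p = 0.228). ATP5MG shares 56.5% and ATP5MF 44.6% of their coding bases with another annotated gene. ATP5S, coupling factor B and the lowest tested gene of the set, was at 1.15 ± 0.140 FPKM in shPAK5 and 0.952 ± 0.0459 FPKM in shNC (SD, n = 3 each), without overlap, at 0.14 ± 0.09 (SE; limma adjusted p = 0.456).

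Several complex I subunits were listed at very low levels in both groups, and these low levels went with overlap in the annotation. Of the 80 genes left after 11 tissue forms, copies and readthrough genes were set aside, 56 had no coding base in common with another gene's exons, and their median level was 48.8 FPKM, with the lowest at 5.68 FPKM. For the 11 genes with at least 50% of coding bases in common, the median was 6.71 FPKM, 7 lay under 10 FPKM and 3 under 1 FPKM. Across the 80 genes Spearman's rho of level with the share of overlapped coding bases was -0.457, a description over genes of the same libraries. NDUFV2, a core subunit with an iron-sulfur cluster, was listed at 0.163, 0.218 and 0.293 FPKM in shPAK5 and 0.273, 0.352 and 0.177 FPKM in shNC libraries. Of its coding bases 84.7% are shared on the same strand with AP005263.1, which had 0 reads. A processed pseudogene, NDUFV2P1, had 35, 45 and 53 reads in shPAK5 and 50, 48 and 46 reads in shNC libraries. NDUFV2 itself had 67 reads over the 6 libraries. Whether reads were exchanged between them was not tested.

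Other subunits of complex I were low in the same way. NDUFA7 had 78.3% of its coding bases shared and a mean of 0.254 FPKM, and NDUFA13, an accessory subunit also known as GRIM-19, had 55.2% and a mean of 0.560 FPKM. NDUFB8 had 85.2% shared and 4.93 FPKM, and NDUFA9, the lowest tested gene of the complex, 67.9% and 2.07 FPKM. Not every overlapped gene was low: COX8A, with 55.1% of coding bases shared, was at 249.9 FPKM. How reads in shared bases were assigned is not given in the sources used here, and whether the levels follow from it was not tested. The listed levels of NDUFV2, NDUFA7, NDUFA13, NDUFB8 and NDUFA9 are therefore uncertain as measures of their transcripts, and the readthrough genes NDUFC2-KCTD14 and ATP5MF-PTCD1 had 0 reads. The same limit holds for other genes with shared coding bases, such as UQCR11 at 100%, NDUFC2 at 76.9% and ATP5PO at 62.6%.

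**Figure D4:**
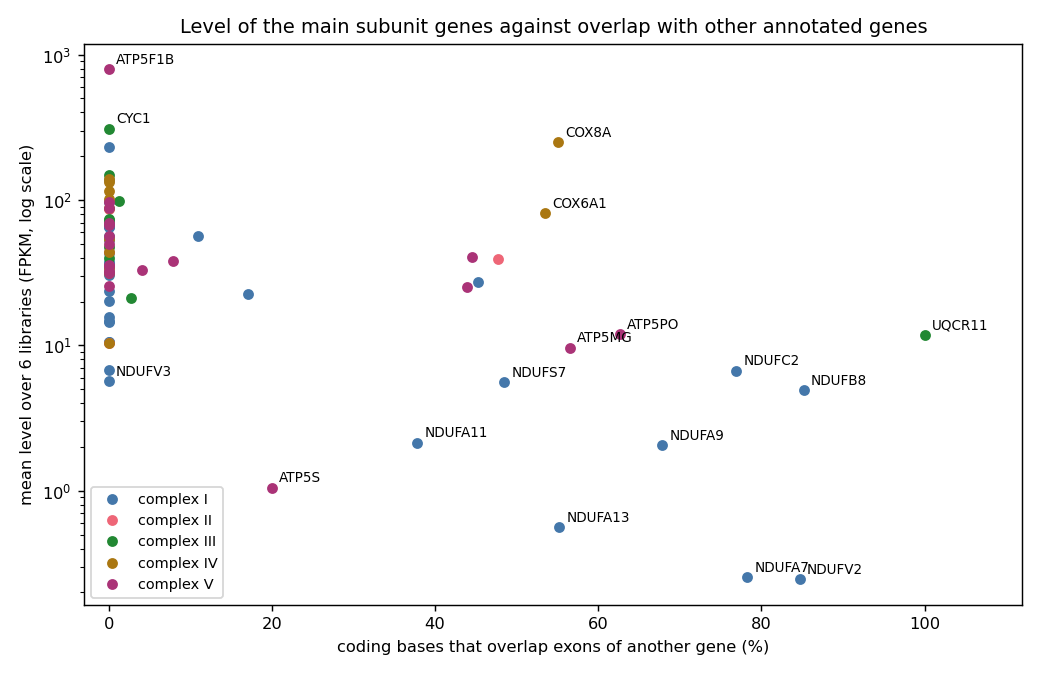
Mean level over the 6 libraries (FPKM, log axis) of the 80 main subunit genes against the percentage of their coding bases that overlap exons of another annotated gene; colours mark the complex. The 3 genes under 1 FPKM, NDUFA13, NDUFA7 and NDUFV2, have 55.2 to 84.7% of coding bases overlapped, and no gene without overlap lies under 5.68 FPKM.

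Across the set the 78 tested genes ran from 1.05 to 790.3 FPKM with a median of 38.9 FPKM, and 69 of them lay above the median of 7.33 FPKM of all tested protein-coding genes. The median was 30.4 FPKM for complex I, 41.8 for complex II, 60.0 for complex III, 84.6 for complex IV and 35.7 for complex V. These medians were over both groups together. Of the 78 genes, 77 had at least 100 reads in every library, and UQCRHL had as few as 47.

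NDUFA5 and NDUFB5, 2 of the 3 genes that passed limma-voom, have transcripts of low GC content, 36.0% and 39.4%, where the tested subunit genes had a median of 47.7% and all tested genes 49.4%. SDHD, at 47.3%, is close to the median. The libraries themselves carried GC trends: Pearson's r across genes between a library's deviations and GC content was -0.27, -0.24 and -0.15 in shPAK5 replicates 1 to 3 and -0.33, 0.48 and 0.36 in shNC replicates 1 to 3. On this measure shNC replicate 1 stood with the shPAK5 libraries and apart from the other shNC libraries. Across the 78 subunit genes Spearman's rho between the difference and GC content was -0.34, and across all 11234 genes with a GC value it was -0.47, as descriptions over genes.

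After a loess correction of each library for GC content the difference was 0.33 for NDUFA5 (limma adjusted p = 0.106), 0.32 for NDUFB5 (adjusted p = 0.102) and 0.35 for SDHD (adjusted p = 0.126). Without shNC replicate 1, limma called 5.53% of all tested genes as higher and 8.34% in either direction. Of the subunit genes 6 passed, 7.69% of those tested, all higher in shPAK5. These were NDUFA5 at 0.64 (limma adjusted p = 0.0305), NDUFB5 at 0.54 (limma adjusted p = 0.0321), SDHD at 0.49 (limma adjusted p = 0.0221), NDUFA2 at 0.32 (limma adjusted p = 0.0335), NDUFB6 at 0.23 (limma adjusted p = 0.0334) and ATP5PF at 0.20 (limma adjusted p = 0.0438). With the GC correction and without that library, a fit chosen after seeing the data, 17 of the 11237 genes passed, 0.151%. SDHD, at 0.46, was the only subunit gene among them. What part the GC trends have in these differences was not tested further.

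**Figure D5:**
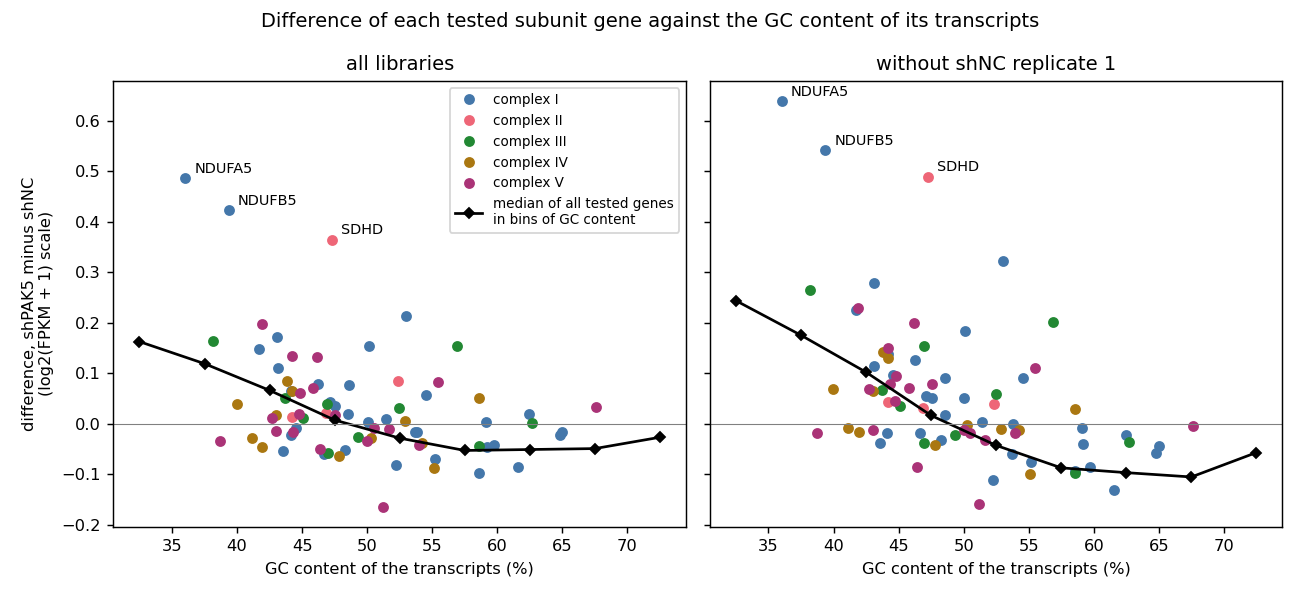
Difference between shPAK5 and shNC (log2(FPKM + 1) scale) of the 78 tested subunit genes against the GC content of their transcripts, with all libraries (left) and without shNC replicate 1 (right); diamonds are medians of all tested genes in bins of 5 percentage points. From 35 to 40% GC the median of all genes is 0.12 with all libraries and 0.18 without shNC replicate 1, and NDUFA5 and NDUFB5 lie above it in both panels.

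Promoters of respiratory genes are known for sites of NRF1, of ETS factors such as GABPA and of YY1. In RefSeq promoter windows of GRCh38.p14, which hold 250 bases before and 50 after a start site, 71 of the 91 genes had an entry, with 85 windows. NDUFB5 was among the 20 genes without an entry, so its promoter was not searched. The NRF1 word GCGCATGCG, searched on both strands, stood in 12.9% of the subunit windows and in 1.92% of all 35116 windows. Searched likewise, the ETS word CCGGAAG stood in 25.9% of the subunit windows and 10.3% of all windows, and the YY1 word AAGATGGCG in 11.8% of the subunit windows and 1.75% of all. The estrogen-related receptor word TCAAGGTCA stood in 1.18% of the subunit windows, which is 1 window, that of SDHD, and in 0.353% of all. The NRF1 word was found for 11 subunit genes, among them NDUFA5 and SDHD, and the stretch around it follows for each, 5′ to 3′ on the strand of the gene, to set these 2 genes beside the 9 that did not pass. Capitals mark the word on either strand, which is 1 base longer where both strands match in overlap.
NDUFA5: tatgcccatcGCGCATGCGtcaatttttct
SDHD: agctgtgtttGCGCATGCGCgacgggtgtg
NDUFA8: gttgccggatGCGCATGCGCaggcgccgtg
NDUFB4: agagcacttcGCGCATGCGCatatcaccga
NDUFS6: cagaagccgtGCGCATGCGttagcgctaag
NDUFS7: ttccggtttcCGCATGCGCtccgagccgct
COX6A1: ggagggcacaCGCATGCGCacgaaggaaac
ATP5F1C: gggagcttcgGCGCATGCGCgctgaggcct
ATP5MC2: gcccgggtcaCGCATGCGCtgagccttcct
ATP5ME: gccgctgacgGCGCATGCGtgcgcccagct
ATP5PF: cactcaaagaGCGCATGCGtacagagcaag

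The NDUFA5 stretch lies at chr7:123557957-123557986 on the minus strand, with the word 158 bases before 1 of its 3 RefSeq starts, a start inside the gene's span given above. The SDHD stretch lies at chr11:112086753-112086782 on the plus strand, with the word 110 bases before its 1 RefSeq start. That start lies inside the span of SDHD given above, and the stretch itself crosses the first base of that span. In the 11 genes the differences between shPAK5 and shNC ran from -0.07 to 0.49 with a median of 0.01, 7 above 0 and 4 below. A match of letters is no measure of binding.

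The proteins that build, feed and regulate the complexes were taken from written lists, and none of their tested genes passed limma, limma-voom or the GC-corrected fit. The 13 mitochondrially encoded subunits, 7 above and 6 below 0, summed to 87690 ± 4304 FPKM in shPAK5 and 88030 ± 1450 FPKM in shNC (SD, n = 3 each), and their median difference was 0.00. Assembly factors had median differences of -0.03 for complex I (7 of 17 tested above 0), 0.17 for complex II (3 of 4), -0.03 for complex III (2 of 6), 0.06 for complex IV (15 of 24) and 0.07 for complex V (3 of 3). Electron carriers and other feeds of the chain stood at -0.01 (7 of 15), citric acid cycle enzymes at 0.00 (7 of 13), mitochondrial ribosomal proteins at -0.01 (33 of 76) and transcription regulators of mitochondrial genes at 0.04 (9 of 13).

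TFAM and CYCS, like NDUFA5, were low in shNC replicates 2 and 3 and not in shNC replicate 1. TFAM, which packages and transcribes mitochondrial DNA, was at 21.8, 20.2 and 19.4 FPKM in shPAK5 and 19.6, 13.9 and 17.8 FPKM in shNC libraries, overlapping through shNC replicate 1, with a difference of 0.26 ± 0.11 (SE; limma adjusted p = 0.292). CYCS, cytochrome c, averaged 43.7 ± 0.412 FPKM in shPAK5 and 39.0 ± 6.67 FPKM in shNC (SD, n = 3 each). PPARGC1A, a coactivator that raises mitochondrial genes in muscle and fat, was at 0 in all 6 libraries. Without shNC replicate 1, where limma called 8.34% of all tested genes in either direction, it called LYRM7 higher and UQCC3 lower among complex III assembly factors, TFB2M and GABPA higher among regulators, and 5 mitochondrial ribosomal proteins higher and 3 lower.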

How the data were processed

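RNA libraries were made with the NEBNext Ultra kit, per the labels' protocols. The authors deposited FPKM per gene with gene lengths. What aligner and counter were used, and whether strand was, is not given in the sources used here. Their processing notes name the build mm10, but all 58735 gene IDs, coordinates and exonic lengths equalled human GENCODE 29 (GRCh38), as did 58723 symbols. FPKM times length gave whole multiples of 1 read for 100% of values, within 0.0001. Samples were grouped and numbered by title. Same-numbered libraries did not deviate together (r = 0.07, -0.02 and 0.01).

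The test was limma 3.58.1 in R 4.3.3 (trend) on log2(FPKM + 1), group as the term, with Benjamini-Hochberg adjustment over the 11237 genes of at least 1 FPKM. This scale understates the change of low genes. FPKM is not a count, so limma-voom on the recovered reads was an alternative. The GC correction was a loess curve, span 0.3. An exact permutation test of 3 against 3 cannot go below p = 0.1 and was not used. Fits were tested on simulated reads with equal extra spread in all genes and libraries and no GC trend. That test does not cover the uneven spread or the GC trends of these libraries. Intervals for 0 reads cover counting error only.

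Named genes were those called in limma or limma-voom, each complex's tested genes with the highest and lowest level and the largest difference upward and downward, genes with alternative forms, and ATP5IF1. The other genes named, such as NDUFS1, NDUFV3, UQCR11, NDUFV2 and TFAM, were picked with their values known. The values of 1 subunit gene are not reported here. The members and lists were chosen with earlier results of these data known. Of 18 complex I assembly factors written, 17 were matched by symbol. Combinations of the GC correction or limma-voom with shNC replicate 1 left out, and levels per principal transcript, were chosen after seeing the data.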

Additional observations from a re-analysis of the deposited data

How the results depend on the processing

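The number of genes passing limma over the whole table, 13, and that of subunit genes, 0, depended on the processing, while the median difference of each complex moved by less than the spread between replicates in the 16 alternatives that changed 1 choice at a time, and in 17 for complexes I and IV. The medians ranged from 0.00 to 0.03 for complex I, from 0.04 to 0.07 for complex II, from 0.00 to 0.05 for complex III, from -0.05 to 0.01 for complex IV and from -0.02 to 0.05 for complex V. Genes called came to 7 with no filter on low values, 31 with a mean of at least 5 FPKM, 20 with quantile scaling, 63 with the GC correction and 117 in limma-voom. With the replicate block, although the numbers did not pair the libraries, 2 genes were called and 0 subunit genes. Leaving out single libraries gave 2 to 937 genes and 0 to 6 subunit genes, the highest without shNC replicate 1. Without that library the GC-corrected fit called 17 genes, 0.151% of those tested, and 1 of the 78 tested subunit genes. Also without it, limma-voom called 2427 genes, 21.6% of those tested, 1470 of them higher and 957 lower. Of the 78 tested subunit genes that fit called 13, 11 higher and 2 lower. limma-voom with all libraries called 3 subunit genes. NDUFA5, NDUFB5 and SDHD stayed above 0 in all 18 alternatives, at 0.33 to 0.75, 0.30 to 0.60 and 0.28 to 0.50, and passed in 3, 3 and 4 of them, with adjusted p from 1.65e-05 to 0.458, from 5.08e-05 to 0.451 and from 1.64e-05 to 0.458. The cause was not tested.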
